A study of Mus musculus with 5 samples.

Results

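Glycolysis and the response to low oxygen were followed in mouse lung through 32 genes, chosen by exact symbol from the 42454 gene features of 5 single-cell RNA-seq libraries. All 32 were present in the feature list. They comprise 23 genes of glycolysis and lactate handling, 7 genes known as targets of the hypoxia-inducible factors (HIF) outside glycolysis, and the 2 HIF α subunits Hif1a and Epas1. Together they took between 0.302% and 0.472% of all transcript counts of a library. The rule names genes by symbol and uses no measured value, but the genes were chosen with earlier results of these data known.

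All mice were C57BL/6J. During their first 3 days newborn mice breathed either room air or 95% O2 (hyperoxia), and afterwards all were kept in room air until postnatal day (pnd) 7 or pnd60. Unsorted lung cells gave 4 libraries, air pnd7, hyperoxia pnd7, air pnd60 and hyperoxia pnd60. The 5th library held cells of hyperoxia-exposed lungs at pnd7 that were sorted for C12FDG, a fluorogenic substrate of β-galactosidase, from 3 pooled lungs, and its label calls them senescent. Each condition had 1 library, so no difference below has a replicate check and no p-value is given. The sorted cells also went through staining and flow sorting, so the effects of handling and of the sorted property cannot be told apart. The study's authors describe the unsorted libraries as an earlier published dataset, reused as controls. Differences between experiments therefore also cannot be told apart from the sorted property.

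Glycolysis breaks glucose down to pyruvate in the cytosol, and lactate dehydrogenase turns pyruvate into lactate, which leaves the cell through monocarboxylate transporters. HIF α subunits are hydroxylated by the oxygen-dependent Egln enzymes and degraded in well-oxygenated cells. When oxygen is low they accumulate and raise the transcription of glucose transporters, most glycolytic enzymes, the mitophagy receptors Bnip3 and Bnip3l, the pyruvate dehydrogenase kinase Pdk1 and, as feedback, Egln1 and Egln3. In lung, Epas1 is best known from endothelial cells.

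HIF binds DNA at a short core, ACGTG or GCGTG. This core was searched on both strands, where the reverse reads CACGT or CACGC, in the RefSeq promoters of the GRCm38.p6 build, from 250 bases before to 50 bases after a start site. The palindrome CACGTG holds both ACGTG and CACGT, and these overlapping matches were counted separately. A promoter row was found for 29 of the 32 genes, and for 26 of the 29 at least 1 promoter held the core (89.7%). Over all genes with a promoter row the share was 46.7%, and over single promoters it was 81.0% for the members and 43.8% for all. Both forms of the core hold the bases CG, and the shares were not matched for base composition, whose part was not tested. Tpi1, Gpi1 and Eno2 had no match in this window, which says nothing of binding elsewhere. Stretches upstream of the start are shown for 6 genes on which the results below turn, read 5′ to 3′ on the strand of the gene, with the core and its reverse in capitals.
Slc2a1, chr4:119108656-119108741, plus strand: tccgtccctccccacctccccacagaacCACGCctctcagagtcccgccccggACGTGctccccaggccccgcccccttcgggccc
Hk2, chr6:82774474-82774704, minus strand: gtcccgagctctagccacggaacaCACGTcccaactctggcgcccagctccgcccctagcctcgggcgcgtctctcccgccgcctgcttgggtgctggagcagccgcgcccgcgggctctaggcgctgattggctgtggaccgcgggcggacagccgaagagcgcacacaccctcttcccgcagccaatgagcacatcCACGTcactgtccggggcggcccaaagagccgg
Pfkfb3, chr2:11553957-11554017, minus strand: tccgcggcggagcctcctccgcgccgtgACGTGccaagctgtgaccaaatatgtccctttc
Ldha, chr7:46845631-46845802, plus strand: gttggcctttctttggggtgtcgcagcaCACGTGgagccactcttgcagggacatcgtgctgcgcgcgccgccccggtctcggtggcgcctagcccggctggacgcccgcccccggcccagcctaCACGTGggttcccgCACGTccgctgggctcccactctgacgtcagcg
Pdk1, chr2:71873118-71873178, plus strand: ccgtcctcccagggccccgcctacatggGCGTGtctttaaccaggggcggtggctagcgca
Bnip3, chr7:138909509-138909651, minus strand: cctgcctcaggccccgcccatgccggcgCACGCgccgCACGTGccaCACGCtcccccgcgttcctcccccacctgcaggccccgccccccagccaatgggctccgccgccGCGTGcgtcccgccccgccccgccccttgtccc
The Ldha stretch held 5 matches, 4 of them in 2 copies of CACGTG, and the Bnip3 stretch held 5. Slc2a1 and Hk2 had 2 matches each in these stretches, and Pdk1 and the start of Pfkfb3 shown had 1. The positions are sequence matches only, and no binding data were analysed.

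Levels are given as CPM, the counts of a gene over all counts of the same cells, scaled to the usual common total. After the filter on cells, 2308, 1246 and 493 cells were left for air, hyperoxia and sorted hyperoxia at pnd7, and 4397 and 4756 for air and hyperoxia at pnd60, with 7880365 to 16648251 counts in a library. Depth differed, from a median of 2168 counts per cell in air pnd60 to 15529 in the sorted library, and libraries shared at most 7 cell barcodes. A log2 ratio is followed by its 95% counting interval in brackets. A gene needed 100 counts in the 2 libraries to be compared, and is called past the fold when the ratio reached 1.5-fold with an interval that left out 0. Intervals cover counting error only.

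Whole libraries differ in their cells, and fewer cells of a type and less RNA per cell cannot be told apart in them. Cells were therefore also grouped into classes from marker genes, each called X-like. Alveolar macrophage-like cells made up 84.2% of the sorted library but 5.06% of the unsorted hyperoxia library at pnd7. With clusters built after integration of the libraries, the class held 38.5% of the sorted library. Erythroid-like cells made up 29.2% of the air library and 7.54% of the hyperoxia library at pnd7, endothelial cell-like cells 6.80% and 14.8%, and fibroblast-like cells 6.37% and 14.2%. Integrated clusters kept these directions with smaller shifts, at 20.2% and 8.35%, 8.32% and 10.4%, and 7.02% and 11.2% in the same order. Cdkn1a, a senescence-associated cell cycle inhibitor, was at 110.0 CPM in the sorted library, against 11.2 CPM in air and 21.3 CPM in hyperoxia at pnd7. The other senescence marker Cdkn2a was near its floor at 0.381 CPM in the sorted library, and Glb1, which encodes the β-galactosidase, was at 15.7 CPM there against 19.5 CPM without sorting.

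The summed level of the 23 glycolysis genes was 2226 CPM in air pnd7, 2450.0 CPM in hyperoxia pnd7, 4055 CPM in sorted hyperoxia pnd7, 2182 CPM in air pnd60 and 2209.8 CPM in hyperoxia pnd60. The 4 unsorted libraries lay close together and the sorted library stood above all of them. The 7 HIF targets summed to 472, 437, 482, 439.6 and 447 CPM in the same order, and the sorted library and air pnd7, the highest, lay within counting error of each other. Eno1 was nearly absent at 13, 15, 25, 4 and 9 counts, although enolase is an obligatory step of the pathway. A near-identical copy, Eno1b, was listed as a separate feature with 28, 17, 122, 6 and 22 counts. The level of Eno1 is therefore uncertain, since reads shared by copies may not have been counted, and it entered no comparison. Eno2, the neuronal enolase, was low as well, at 12, 9, 11, 20 and 37 counts, and was likewise under the minimum in every comparison.

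**Figure D1:**
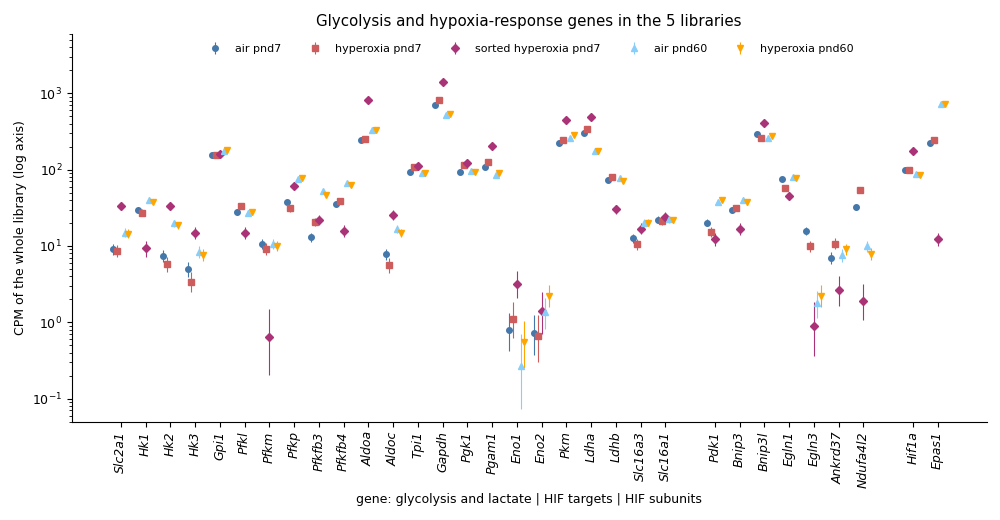
CPM of each of the 32 genes (x axis, glycolysis and lactate genes, HIF targets and HIF subunits from left to right) in the 5 libraries, on a log axis, with 95% counting intervals as bars. The sorted library (diamonds) lies above the other 4 for Slc2a1, Hk2, Aldoa and Gapdh and below them for Pfkm, Ndufa4l2 and Epas1.

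Exposure to hyperoxia was compared with air at pnd7, after some days of recovery in room air. Over whole libraries the glycolysis genes were near no change, with a median log2 ratio of 0.02 over 21 genes, and 1 of them was past the fold, Pfkfb3. The 7 HIF targets had a median of -0.17, with 2 past the fold above air and 1 below it. Both medians stood beside -0.02 over all 12591 genes compared. Of the 30 members compared, 3 were past the fold in the higher direction and 1 in the lower, against 1.53% and 3.26% of all genes.

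Beyond counting error, 8 of the 21 glycolysis genes were higher in hyperoxia and 3 were lower. The share of all genes beyond counting error was not determined, and genes with many counts pass it at smaller ratios. The 6 higher ones besides Pfkfb3 and Pfkl lay from triose phosphate isomerase to lactate dehydrogenase, and all 6 stayed below 1.5-fold. Gapdh, which oxidises glyceraldehyde phosphate, was at 711 CPM in air and 815 CPM in hyperoxia, a log2 ratio of 0.20 (0.16 to 0.23). Phosphoglycerate kinase Pgk1 was at 94.3 and 113 CPM, 0.27 (0.16 to 0.37), and phosphoglycerate mutase Pgam1 at 107 and 126 CPM, 0.23 (0.14 to 0.33). Triose phosphate isomerase Tpi1 had a ratio of 0.21 (0.11 to 0.32), pyruvate kinase Pkm 0.12 (0.05 to 0.18) and Ldha, the lactate-forming dehydrogenase, 0.18 (0.12 to 0.23). Ldhb, at 0.11 (-0.01 to 0.23), had an interval that reached 0. The aldolases one step earlier did not share this direction, with Aldoa at 0.02 (-0.05 to 0.09) and Aldoc, from 7.75 to 5.60 CPM, lower at -0.47 (-0.90 to -0.05). Genes of the entry to glycolysis were mixed. The phosphofructokinase Pfkl was at 28.1 and 33.5 CPM, 0.26 (0.07 to 0.45), higher, and Pfkp at 37.3 and 31.0 CPM, -0.27 (-0.45 to -0.09), lower. Hk3, a hexokinase of myeloid cells, was lower at -0.54 (-1.09 to -0.002). The intervals of Hk2, -0.33 (-0.76 to 0.09), Slc2a1, which carries glucose into the cell, -0.06 (-0.43 to 0.29), Hk1, -0.09 (-0.29 to 0.10), Gpi1, 0.01 (-0.07 to 0.10), and Pfkm, -0.21 (-0.55 to 0.13), held 0.

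For each of the 4 members past the fold, the class with the largest share of its counts was the same in both libraries. Pfkfb3, whose product raises an activator of phosphofructokinase, was at 13.1 CPM in air and 20.3 CPM in hyperoxia, 0.63 (0.37 to 0.90). Fibroblast-like cells held 43.6% of its counts in air and 43.5% in hyperoxia, and within them its level was 53.6 and 57.8 CPM, 0.11 (-0.29 to 0.51). Within this class no difference was detectable at this depth, and the class took a larger share of the hyperoxia cells. Most Pfkfb3 counts lay outside this class in both libraries, and the part of cell shares in its ratio was not tested.

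Ndufa4l2, a mitochondrial protein gene known as a strong HIF target, was at 32.5 CPM in air and 53.3 CPM in hyperoxia, 0.71 (0.55 to 0.88). Pericyte-like cells, 1.99% of the air cells and 3.93% of the hyperoxia cells, held 77.6% and 78.4% of its counts. Within pericyte-like cells it was at 675 and 793 CPM, 0.23 (0.05 to 0.42). The direction was kept there and the size fell short of 1.5-fold. In the pericyte class the 10 type II cell markers summed to 20319.6 CPM in air and 18178 CPM in hyperoxia, above the 10 pericyte markers at 8902 and 10518 CPM, none of them at 0, and their part in these values was not tested.

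Egln3, an oxygen-dependent HIF hydroxylase, went the other way, from 15.7 CPM in air to 9.87 CPM in hyperoxia, -0.67 (-0.98 to -0.37). Smooth muscle or myofibroblast-like cells held 76.7% and 84.3% of its counts, and their share of cells was 9.10% in air and 6.58% in hyperoxia. Within them Egln3 was at 78.6 and 82.4 CPM, 0.07 (-0.28 to 0.41), which does not separate the 2 libraries. The ankyrin repeat gene Ankrd37 was at 7.03 CPM in air and 10.8 CPM in hyperoxia, 0.61 (0.25 to 0.98), and endothelial cell-like cells held 28.2% and 39.7% of its counts. Its level within them was 22.8 CPM from 33 counts and 38.0 CPM from 58 counts, under the minimum of 100 counts. Its ratio there was 0.74 (0.10 to 1.40), not smaller than in the whole library, unlike the other 3 genes.

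**Figure D2:**
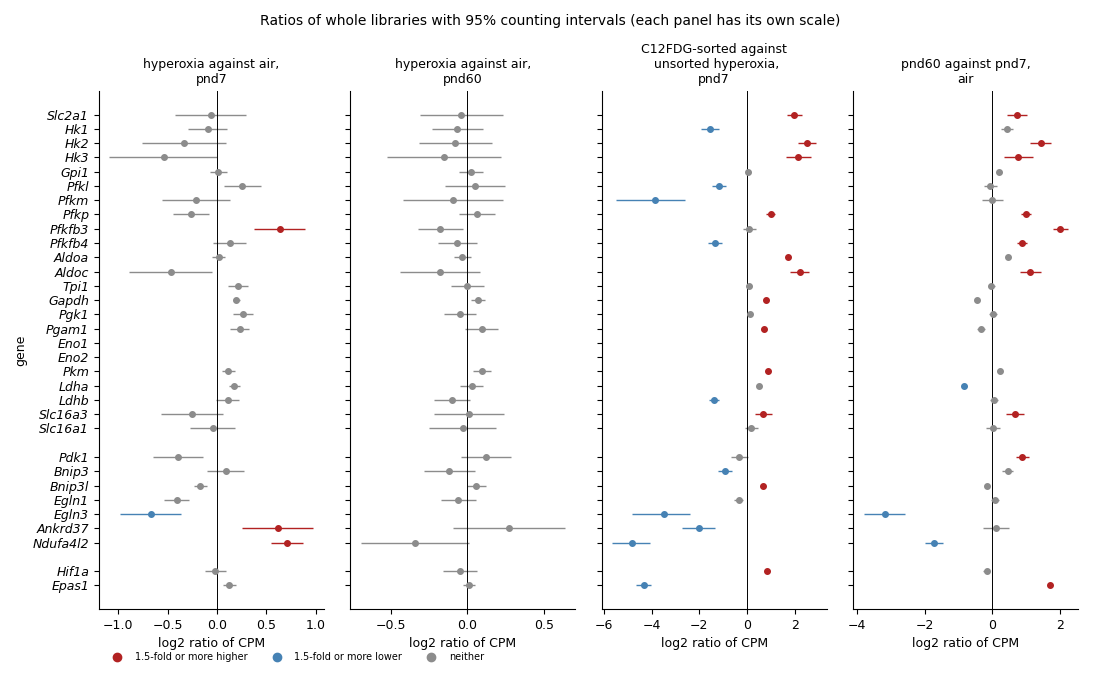
Log2 ratio of CPM (x axis, with a scale of its own in each panel) for each gene compared (y axis) in the 4 comparisons of whole libraries, with 95% counting intervals as bars. At pnd7, 3 genes lie 1.5-fold or more above air and 1 below; at pnd60 none does; the sorted library has 12 above and 10 below.

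Classes with enough cells were compared directly at pnd7. In endothelial cell-like cells (157 in air and 184 in hyperoxia, most of them in cluster 14 in both libraries), 0 of 10 glycolysis genes passed the fold in either direction, with a median of 0.12. Egln1, the main oxygen-dependent HIF hydroxylase, was at 77.3 CPM in air and 48.5 CPM in hyperoxia, -0.67 (-1.12 to -0.24). It was the only member past the fold in this class, where 1.08% of all genes were past the fold above air and 2.61% below. Egln1 was also the lower of the pair in pericyte-like cells, at 98.1 and 58.7 CPM, -0.74 (-1.34 to -0.15), where 3.52% of all genes were past the fold above air and 3.56% below. It was lower too in smooth muscle or myofibroblast-like cells, at 126 and 91.2 CPM, -0.47 (-0.78 to -0.17). In the whole library it was at 76.2 CPM in air and 57.4 CPM in hyperoxia, -0.41 (-0.54 to -0.28), so a lower Egln1 level in hyperoxia was seen in the mixture and in these 3 classes.

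Type II cells make surfactant. In type II cell-like cells (176 in air and 145 in hyperoxia, nearly all in cluster 12), 10 of 13 glycolysis genes had a ratio above 0 and 1 passed the fold, with a median of 0.20. Across all genes of this class, 2.62% were past the fold above air and 2.3% below, and the median was -0.02. Pgk1 was at 52.3 CPM in air and 88.1 CPM in hyperoxia, 0.75 (0.44 to 1.07). Gapdh was at 526 and 747 CPM, 0.51 (0.40 to 0.61), and Ldha at 362 and 484 CPM, 0.42 (0.30 to 0.54). These 3 enzymes of the lower pathway were thus higher in type II cell-like cells by more than in the whole library. Gpi1 had the lowest ratio of the 13 genes, at 129 CPM in air and 108 CPM in hyperoxia, -0.26 (-0.50 to -0.02). Pdk1, whose product keeps pyruvate out of the mitochondrial cycle by inhibiting pyruvate dehydrogenase, was lower, at 36.6 CPM in air and 22.8 CPM in hyperoxia, -0.68 (-1.18 to -0.19). Of the 4 HIF targets compared in this class Pdk1 was the one past the fold. Egln1, -0.30 (-0.61 to 0.01), Bnip3l, -0.01 (-0.19 to 0.17), and Bnip3, -0.01 (-0.34 to 0.33), had intervals that held 0. Both HIF subunits were lower beyond counting error, with ratios of -0.32 (-0.58 to -0.06) for Hif1a and -0.45 (-0.72 to -0.18) for Epas1.

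In fibroblast-like cells (147 in air and 177 in hyperoxia) the 10 glycolysis genes had a median of 0.16, with none past the fold. Background shares for this class were 2.32% above air and 2.79% below. Ndufa4l2 was at 26.5 CPM in air and 46.8 CPM in hyperoxia, 0.82 (0.30 to 1.35), and Epas1 at 41.7 and 98.3 CPM, 1.24 (0.85 to 1.64). These pooled values came from clusters that went apart. In cluster 20, which held 117 air and 107 hyperoxia cells, Epas1 was lower in hyperoxia, at 52.0 against 19.7 CPM, and Ndufa4l2 at 22.1 against 6.11 CPM. In cluster 38, led by the mitotic genes Cenpf and Hmmr and holding 17 air and 64 hyperoxia cells, Epas1 was at 346 CPM and Ndufa4l2 at 126 CPM in hyperoxia, against 1 count of each in air. In the fibroblast class the 14 endothelial markers summed to 196 CPM in air and 616 CPM in hyperoxia, with 1 marker, Cldn5, at 0 in both, and the 10 pericyte markers to 886 and 877 CPM with none at 0. Their part in these differences was not tested.

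Smooth muscle or myofibroblast-like cells (210 in air and 82 in hyperoxia, cluster 15) had 9 of 11 glycolysis genes with a ratio above 0 and 0 past the fold in either direction, beside 1.28% of all genes above air and 3.24% below. They had a median of 0.26 and a summed level of 1746 CPM in air and 2231 CPM in hyperoxia. In alveolar macrophage-like cells (106 and 63, most in cluster 26) the 10 genes compared had a median of 0.07 and 0 passed the fold in either direction, beside 2.28% and 2.02% of all genes. In T cell-like cells (137 and 69) 3 of 10 were past the fold above air and 1 below, against 6.87% and 7.09% of all genes. However, 5 of the 69 hyperoxia cells held 39.0% of their glycolysis counts. Over single T cell-like cells the median summed level was 3096 CPM in air and 2976 CPM in hyperoxia. Of 9 classes with genes to compare at pnd7, 7 had a median above 0, and monocyte-like cells, at -0.12, and erythroid-like cells, at -0.17, had one below 0. Over all genes these 2 classes had medians of -0.05 and -0.48, so the glycolysis median of erythroid-like cells lay above that of their other genes. With every cell thinned to 1000 counts, which left few genes, the median turned to -0.35 in endothelial cell-like cells.

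At pnd60, after the mice had recovered in air, the same exposure was compared again. None of the 29 members compared passed the fold, beside 1.14% of all genes in the higher and 0.828% in the lower direction. Median log2 ratios were -0.03 for the glycolysis genes and -0.0006 for the HIF targets, against 0.01 over all 12928 genes. Pfkfb3, the member with the highest ratio among glycolysis genes at pnd7, was at 52.6 CPM in air and 46.5 CPM in hyperoxia at pnd60, -0.18 (-0.32 to -0.03). Ndufa4l2 was at 9.90 and 7.80 CPM, -0.34 (-0.70 to 0.01), and Ankrd37 at 7.53 and 9.07 CPM, 0.27 (-0.09 to 0.64). All 29 members lay between -0.34 for Ndufa4l2 and 0.27 for Ankrd37.

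A difference at pnd60 appeared in type II cell-like cells (437 in air and 529 in hyperoxia, most in cluster 2). Hk2, the inducible hexokinase, was at 49.2 CPM in air and 31.3 CPM in hyperoxia, -0.65 (-1.03 to -0.27). Of all genes of the class, 1.23% were past the fold above air and 0.67% below. At pnd7 it stood at 10.3 and 5.30 CPM in the same class, from 27 and 13 counts, too few to compare. The remaining 14 glycolysis genes compared in type II cell-like cells at pnd60 were within 1.5-fold. In pericyte-like cells Ndufa4l2 was at 408 CPM in air and 255 CPM in hyperoxia, -0.68 (-1.21 to -0.15), the reverse of pnd7. In this class 13.1% of the 636 genes compared at pnd60 were past the fold above air and 6.76% below. Epas1 in these cells was at 1206 and 3024 CPM, 1.33 (1.10 to 1.56), but 5 cells held 76.5% of its counts in hyperoxia. Without the 5 cells with most counts in each library, Epas1 was at 687 CPM in air and 1126 CPM in hyperoxia. In the pericyte class the 14 endothelial markers moved with it, from 1685 to 5369.6 CPM in sum, with Cldn5 at 0 in both, and their part in the result was not tested.

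The sorted library was compared with the unsorted hyperoxia library of the same age, the library that also served the comparison with air. Of the 21 glycolysis genes compared, 10 were past the fold above the unsorted library and 5 below it, with a median of 0.49. Of the 7 HIF targets 1 was above and 4 were below, with a median of -0.92. Their summed level was higher by 0.14, and Bnip3l was the only one of them with a ratio above 0. All 11340 genes compared had a median of -0.55, with 13.4% past the fold above and 48.7% below. The counts of HIF targets were thus near the background, and 3 of the 7 lay above the median of all genes. Over the 30 members compared the split was 12 above and 10 below. With library totals rescaled by TMM, a method that trims genes with extreme ratios, the median over all genes moved by 0.57 on the log2 scale, the members split into 18 above and 9 below, and the share of higher calls among all calls was 47.5% in place of 21.6%.

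At the entry to glycolysis, Slc2a1 was at 9.01 CPM in air and 8.62 CPM in hyperoxia at pnd7, 33.6 CPM in the sorted library, and 14.9 CPM in air and 14.5 CPM in hyperoxia at pnd60. The ratio of the sorted to the unsorted hyperoxia library was 1.96 (1.65 to 2.29). Hk2 was at 7.33 CPM in air and 5.82 CPM in hyperoxia at pnd7, 33.1 CPM in the sorted library, and 19.7 CPM in air and 18.6 CPM in hyperoxia at pnd60, a ratio of 2.51 (2.14 to 2.89). Both genes were highest in the sorted library among all 5. Hk3 was at 46 counts without and 118 counts with sorting, 2.14 (1.64 to 2.67), whereas Hk1, the housekeeping hexokinase, was at 27.4 and 9.26 CPM, -1.56 (-1.95 to -1.20). Over whole libraries, whose mix of cells differed, the hexokinases thus went in opposite directions.

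The phosphofructokinases parted in the same way, whereas both aldolases were higher. Pfkp was at 31.0 CPM without and 61.5 CPM with sorting, 0.99 (0.80 to 1.18), while the liver-type Pfkl was at 33.5 and 14.8 CPM, -1.17 (-1.48 to -0.88), and the muscle-type Pfkm at 9.13 and 0.634 CPM, -3.85 (-5.50 to -2.59). Aldoa, the main aldolase, was at 245 CPM in air and 248 CPM in hyperoxia at pnd7, 814 CPM in the sorted library, and 334 CPM in air and 326 CPM in hyperoxia at pnd60, and its ratio was 1.72 (1.65 to 1.78). Aldoc was at 5.60 and 25.5 CPM, 2.19 (1.80 to 2.59). Both aldolases were above every unsorted library. Pfkfb4, a relative of Pfkfb3, was at 39.2 and 15.6 CPM, -1.33 (-1.62 to -1.04), while Pfkfb3 was at 20.3 and 21.7 CPM, 0.09 (-0.19 to 0.37).

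Toward the end of the pathway, Gapdh was at 711 CPM in air and 815 CPM in hyperoxia at pnd7, 1401 CPM in the sorted library, and 515 CPM in air and 539.7 CPM in hyperoxia at pnd60, with a ratio of 0.78 (0.74 to 0.82). Pyruvate kinase Pkm was at 226 CPM in air and 245 CPM in hyperoxia at pnd7, 453 CPM in the sorted library, and 262 CPM in air and 280.2 CPM in hyperoxia at pnd60, 0.89 (0.82 to 0.96). Pgam1 was at 126 CPM without and 203 CPM with sorting, 0.69 (0.59 to 0.79). All 3 were past the fold. Ldha was at 345 and 484 CPM, 0.49 (0.43 to 0.55), just under 1.5-fold, and its counterpart Ldhb, which favours the use of lactate, at 79.4 and 30.2 CPM, -1.39 (-1.60 to -1.19). The lactate exporter Slc16a3 was at 143 and 133 counts, 0.68 (0.33 to 1.03), and Slc16a1 at 21.4 and 24.2 CPM, 0.18 (-0.09 to 0.45). Gpi1, Tpi1 and Pgk1 had ratios of 0.05, 0.06 and 0.10.

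Among the HIF targets, Bnip3l was the one above the unsorted library, at 259 CPM without and 403 CPM with sorting, 0.64 (0.57 to 0.71). Its relative Bnip3 was at 31.4 and 16.6 CPM, -0.92 (-1.21 to -0.63). Egln3, Ankrd37 and Ndufa4l2 were at 0.888, 2.66 and 1.90 CPM in the sorted library, with ratios of -3.47 (-4.82 to -2.39), -2.01 (-2.75 to -1.35) and -4.81 (-5.65 to -4.07). In unsorted hyperoxia the largest share of their counts lay in myofibroblast-, endothelial- and pericyte-like cells, for Ankrd37 39.7% of them, and these classes had 1, 3 and 1 cells in the sorted library. The 2 HIF subunits parted: Hif1a was at 99.0 CPM in air and 97.9 CPM in hyperoxia at pnd7, 175 CPM in the sorted library, and 87.9 CPM in air and 84.9 CPM in hyperoxia at pnd60, 0.84 (0.73 to 0.95), and Epas1 at 225 CPM in air and 245 CPM in hyperoxia at pnd7, 12.2 CPM in the sorted library, and 727 CPM in air and 732 CPM in hyperoxia at pnd60, -4.33 (-4.64 to -4.04). Endothelial cell-like cells held 63.7% of the Epas1 counts of unsorted hyperoxia.

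The comparison was repeated within alveolar macrophage-like cells, 415 in the sorted and 63 in the unsorted hyperoxia library. Of the 18 glycolysis genes compared, 2 were past the fold above and 3 below, with a median of -0.01, and the summed level was 4029 CPM without and 4271 CPM with sorting. The summed level within this class differed by 0.09 on the log2 scale, against 0.73 over all cells. Over all genes of the class, 8.22% were past the fold above and 30.3% below, and the median was -0.28. Most sorted cells (372) lay in cluster 9, led by Hmox1, Slc7a11 and Mt1, genes of heme, cystine and metal handling. Most unsorted hyperoxia cells (45) lay in cluster 26, led by B3gnt7, Abcg1 and Il1rn, and cluster 35, led by the cell cycle genes Pclaf and Top2a, held 43 sorted and 15 unsorted cells. Of the 10 alveolar macrophage markers, 7 were raised over the other cells in cluster 9, with 0 among its leading genes. In cluster 26 all 10 were raised, with 2 among its leading genes, so the name is less firm for most sorted cells.

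Slc2a1 was at 16.7 CPM in unsorted and 35.5 CPM in sorted alveolar macrophage-like cells, 1.08 (0.33 to 1.94), and at 19.1 CPM in those of air. Pkm was at 285 and 461 CPM, 0.70 (0.51 to 0.89). Hk2, at 21.2 and 33.4 CPM, 0.65 (-0.02 to 1.41), had an interval that reached 0. Slc2a1 and Pkm were thus higher in sorted cells of this class, and Aldoa, 0.29 (0.17 to 0.40), Pgam1, 0.50 (0.25 to 0.77), and Ldha, 0.39 (0.23 to 0.55), were higher by less than 1.5-fold. Gapdh, at 1534 and 1503 CPM, -0.03 (-0.11 to 0.05), was not distinguishable. These are ratios of CPM, and all genes of the class had a median of -0.28. Relative to that median, Hk2, Pgam1 and Ldha would be past the fold above, and Gpi1 and Pfkp would not be past it below. The split of genes past the fold in this class thus depends on scaling.

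Pfkfb4 gave the lowest ratio in these cells, from 106 CPM without to 16.5 CPM with sorting, -2.68 (-3.09 to -2.27). In alveolar macrophage-like cells of the other libraries it was at 80.4 CPM in air pnd7, 189 CPM in air pnd60 and 191 CPM in hyperoxia pnd60, so the sorted cells stood below all 4. Gpi1, phosphoglucose isomerase, was at 277 and 166 CPM, -0.73 (-0.93 to -0.53), and Pfkp had a ratio of -0.59 (-0.92 to -0.24), a direction opposite to that of the whole library. The summed level of the 7 HIF targets in this class was 652 CPM without and 514 CPM with sorting, the reverse of the whole library. Of the 4 HIF targets compared, Pdk1 and Bnip3 were past the fold below, beside the 30.3% of all genes, with a median of -0.65, which turned to 0.24 when cells were thinned to 1000 counts. Pdk1 was at 34.6 and 13.5 CPM, -1.35 (-1.96 to -0.72), and Bnip3 at 24.5 and 12.9 CPM, -0.92 (-1.61 to -0.18). Hif1a itself was higher, at 110.5 CPM without and 174 CPM with sorting, 0.65 (0.36 to 0.96).

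Cluster 35 was the one cluster of this class with 10 or more cells of both libraries, although its unsorted cells fell short of the minimum of 20 used for classes. Within it Pkm was at 170.1 CPM in unsorted and 396 CPM in sorted cells, 1.22 (0.76 to 1.71). Gpi1 was at 231 and 145 CPM, -0.67 (-1.12 to -0.21), and Pfkfb4 at 109 CPM from 27 counts and 19.8 CPM from 22 counts. Aldoa was at 449.5 and 671 CPM, 0.58 (0.29 to 0.88). The directions of Pkm, Gpi1, Pfkfb4 and Aldoa were therefore the same in cells that clustered together.

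**Figure D3:**
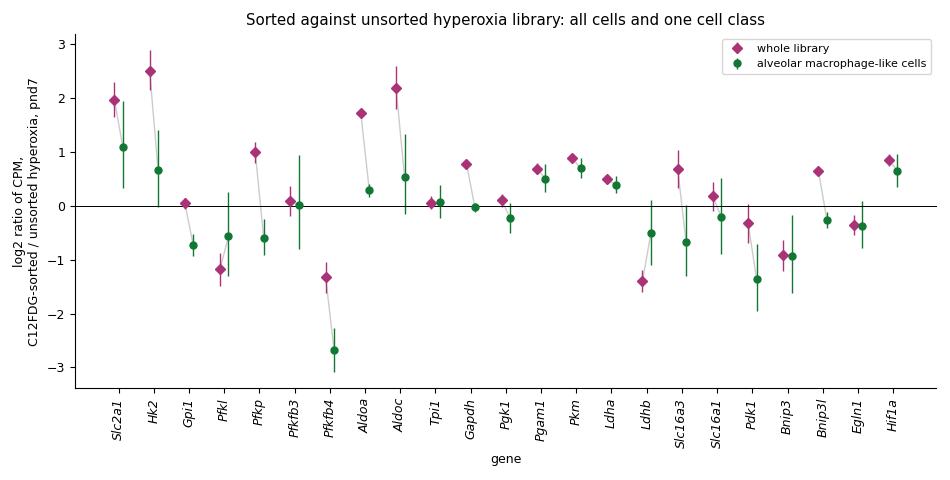
Log2 ratio of CPM, sorted over unsorted hyperoxia at pnd7 (y axis), for each gene compared both over all cells (diamonds) and in alveolar macrophage-like cells (circles), with 95% counting intervals as bars and grey lines joining the 2 values of a gene. The ratios of Hk2 and Aldoa are smaller within the class, that of Gapdh is near 0, those of Pfkp and Bnip3l change direction, that of Gpi1, near 0 over all cells, lies below 0, and that of Pfkfb4 is lower still.

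Among all classes, the summed glycolysis level was highest in alveolar macrophage-like cells in most libraries, between 4029 and 4359 CPM over the 5 libraries. Neutrophil-like cells, present in sufficient number at pnd60 only, were at 4156 CPM in air and 4128 CPM in hyperoxia, within counting error of the alveolar macrophage-like cells. Monocyte-like cells ranged from 3191 to 3894 CPM. Fibroblast-like cells, between 1155 and 1558 CPM, and endothelial cell-like cells, between 1324 and 2063 CPM, lay lower. Immune and structural classes were not cleanly divided. In air pnd60, ciliated airway cell-like cells were at 2658 CPM and type II cell-like cells at 2087 CPM, against 2068 CPM in T cell-like and 1436 CPM in B cell-like cells. T cell-like cells of hyperoxia pnd7 were the exception in the first place, at 4471 CPM over all their counts, but 5 of 69 cells held 39.0% of these, and without them the level was 3504 CPM.

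The summed HIF targets gave another order. Pericyte-like cells were highest in the 4 unsorted libraries, at 1061 and 1116 CPM at pnd7 and 786 and 688 CPM at pnd60. At pnd60 their intervals overlapped those of alveolar macrophage-like cells in both libraries, of neutrophil-like cells in air and of type I cell-like cells in hyperoxia. Ndufa4l2 alone made up 675 and 793 CPM of these sums at pnd7, and 408 and 255 CPM at pnd60, in air and hyperoxia. Without it, the pericyte-like sums at pnd7 fell below the 577 and 528 CPM of Bnip3l alone in alveolar macrophage-like cells of air and hyperoxia. The remaining classes outside alveolar macrophage-like cells lay between 217 and 582 CPM. The classes that led in glycolysis and in HIF targets thus differed beyond counting error in the 2 unsorted libraries at pnd7. This lead of pericyte-like cells rested on Ndufa4l2. In the sorted library alveolar macrophage-like cells led in both, but only they and C1q macrophage-like cells had enough cells there to be ranked.

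**Figure D4:**
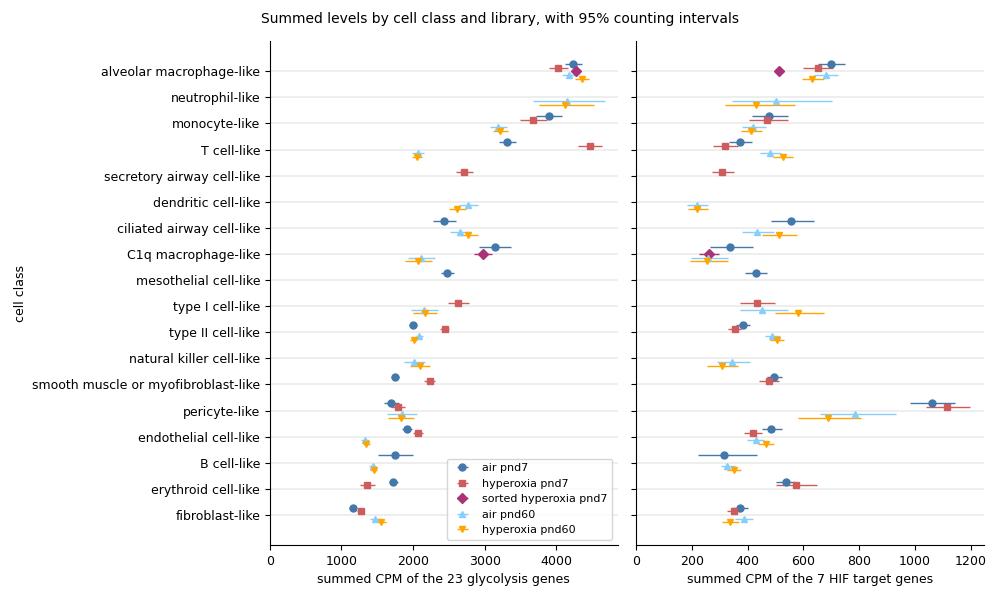
Summed CPM of the 23 glycolysis genes (left) and of the 7 HIF target genes (right) in each cell class (y axis) and library (marker), with 95% counting intervals as bars, for classes with at least 20 cells. Alveolar macrophage-like cells lie between 4029 and 4359 CPM on the left in all 5 libraries, and pericyte-like cells lie highest on the right in the 4 unsorted libraries, within counting error of alveolar macrophage-like cells at pnd60.

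Several members of 1 enzyme family were divided among classes. Hk1 was at 68.4 CPM in endothelial cell-like and 9.95 CPM in alveolar macrophage-like cells of air pnd7, while Hk3 was at 0.691 and 16.6 CPM in the same order and reached 243 CPM in the neutrophil-like cells of air pnd60. Hk2 was at 49.2 CPM in type II cell-like, 41.1 CPM in monocyte-like and 1.13 CPM in endothelial cell-like cells of air pnd60. Among the values given here, each hexokinase was thus highest in a different class, although classes shared them, as alveolar macrophage-like cells did Hk1 and Hk3. Ldhb was at 196 CPM in type II cell-like and 239.9 CPM in ciliated airway cell-like cells of air pnd7, against 10.4 CPM in endothelial cell-like cells. The lactate exporter Slc16a3 was at 163 CPM in monocyte-like cells and was not counted in type II cell-like cells of either pnd7 library. Pfkfb3 was at 216 CPM in fibroblast-like cells of air pnd60 and 4.22 CPM in type II cell-like cells, and its relative Pfkfb4 at 19.0 and 141 CPM, the reverse order.

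Air libraries at pnd60 and pnd7 were compared to follow the genes from alveolar growth to the adult lung. Of 21 glycolysis genes, 8 were past the fold above pnd7 and 1 below, with a median of 0.22 but a summed level that differed by -0.03. Of the 7 HIF targets 1 was above and 2 below, with a median of 0.07 and a summed level that differed by -0.10. All 13003 genes had a median of 0.23, with 31.4% past the fold above and 17% below, so the share of members above, 10 of 30, was near the background. With TMM scaling the median over all genes moved by -0.23, the members split into 7 above and 4 below, the share of higher calls among all calls was 47.5% in place of 64.9%, and the median of the glycolysis genes turned to -0.01.

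Pfkfb3 had the highest ratio of the glycolysis genes, from 13.1 CPM at pnd7 to 52.6 CPM at pnd60, 2.01 (1.79 to 2.23), followed by Hk2, 1.42 (1.11 to 1.74), and Aldoc, 1.12 (0.81 to 1.44). Pfkp, from 37.3 to 74.5 CPM, was also past the fold, and so were Slc2a1, Hk3, Pfkfb4 and Slc16a3, with ratios of 0.73, 0.77, 0.88 and 0.67. Ldha was the glycolysis gene past the fold below pnd7, from 305 to 173 CPM, -0.82 (-0.89 to -0.75), and Gapdh was lower by less, -0.46 (-0.51 to -0.42). Between Gapdh and Ldha in the pathway, Pgk1 had a ratio of 0.02, Pgam1 -0.34 and Pkm 0.22, and Tpi1, which acts before Gapdh, had -0.04. Relative to the median of all genes, Slc2a1 at 0.50, Hk3 at 0.54 and Slc16a3 at 0.44 were under 1.5-fold. Pdk1 went from 20.1 to 37.1 CPM, 0.89 (0.69 to 1.09). Egln3 was at 1.76 CPM at pnd60, -3.16 (-3.80 to -2.57), where 0 smooth muscle or myofibroblast-like cells were found, against 210 at pnd7. Leiden resolution 1 gave the same 2 counts. Integrated clusters gave 27 such cells in air pnd60 and 183 in air pnd7, and naming each cell by its own markers gave 18 and 236. The 0 thus depends on how cells were named.

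Classes gave the same direction for Ldha and different ones for other genes. Cells of 1 class lay mostly in different clusters at the 2 ages: endothelial cell-like cells in cluster 14 at pnd7 and clusters 1 and 17 at pnd60, type II cell-like cells in 12 and 2, fibroblast-like cells in 20 and 4, and alveolar macrophage-like cells in 26 and 13. Ldha was at 231 CPM at pnd7 and 59.5 CPM at pnd60 in endothelial cell-like cells, -1.96 (-2.29 to -1.64), and at 147 and 97.4 CPM in fibroblast-like cells, -0.59 (-0.90 to -0.28). In type II cell-like cells it was at 362 and 252 CPM and in alveolar macrophage-like cells at 395 and 317 CPM. It was lower at pnd60 in all 4. Gapdh in endothelial cell-like cells was at 548 and 239.6 CPM, -1.19 (-1.37 to -1.02), and 3 of the 11 glycolysis genes of this class were past the fold below pnd7 and 1 above. The background for endothelial cell-like cells was 27% above and 21.7% below.

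In type II cell-like cells the balance was the other way, with 4 of 15 glycolysis genes past the fold above pnd7 and 0 below, a share above that was near the 27.1% of all genes, beside 8.59% below. Hk2 was at 10.3 CPM at pnd7 and 49.2 CPM at pnd60, 2.26 (1.65 to 2.91), Aldoc at 10.7 and 32.3 CPM, 1.60 (0.97 to 2.26), and Aldoa at 184 and 299.5 CPM, 0.70 (0.54 to 0.86). Bnip3 was at 60.7 and 99.8 CPM, 0.72 (0.43 to 1.01). Aldoa was above pnd7 in fibroblast-like cells too, at 126 and 288 CPM, 1.20 (0.96 to 1.44), where Pfkfb3 was at 53.6 and 216 CPM, 2.01 (1.67 to 2.36). Fibroblast-like cells had 26.9% and 24.2% of all genes past the fold, and alveolar macrophage-like cells 15.9% and 9.56%. In the latter, Pfkfb4, 1.23 (0.90 to 1.58), and Pfkp, 0.77 (0.45 to 1.11), were the 2 glycolysis genes past the fold.

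Epas1 went from 225 to 727 CPM with age, 1.69 (1.64 to 1.75), and endothelial cell-like cells held 60.2% and 62.9% of its counts. Within endothelial cell-like cells it was at 1557 and 3818 CPM, 1.29 (1.22 to 1.36). In lymphocytes, where the gene is hardly expected, it was at 8.54 CPM at pnd7 and 281 CPM at pnd60 in B cell-like cells, the first from 1 count, and at 2.33 and 231 CPM in T cell-like cells. The B cell-like level serves here as a reference at pnd60, and its source was not tested. Levels of 212 CPM in fibroblast-like and 113 CPM in alveolar macrophage-like cells of air pnd60 lay below this reference, and whether they are background was not tested. Type II cell-like cells, at 106 and 533 CPM, 2.34 (2.15 to 2.53), lay above it at pnd60. Depth differed, with a median of 1603 counts per cell in B cell-like cells of air pnd60. It was 3895.5 in fibroblast-like, 6459 in type II cell-like and 7575 in alveolar macrophage-like cells, so the reference may not carry over to them. With the level of B cell-like cells taken off at each age, a calculation added after the values were seen, type II cell-like cells were at 97.2 and 252 CPM, a log2 ratio of 1.37. The ratio of endothelial cell-like cells was then 1.19. For the other age differences named, B cell-like cells of air pnd60 had 2.83 CPM of Hk2, 35.8 CPM of Pfkfb3, 25.9 CPM of Pfkfb4, 4.71 CPM of Aldoc, 49.5 CPM of Pfkp and 18.9 CPM of Bnip3, all below the classes described. Aldoa is used by every cell and has no such reference.

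**Figure D5:**
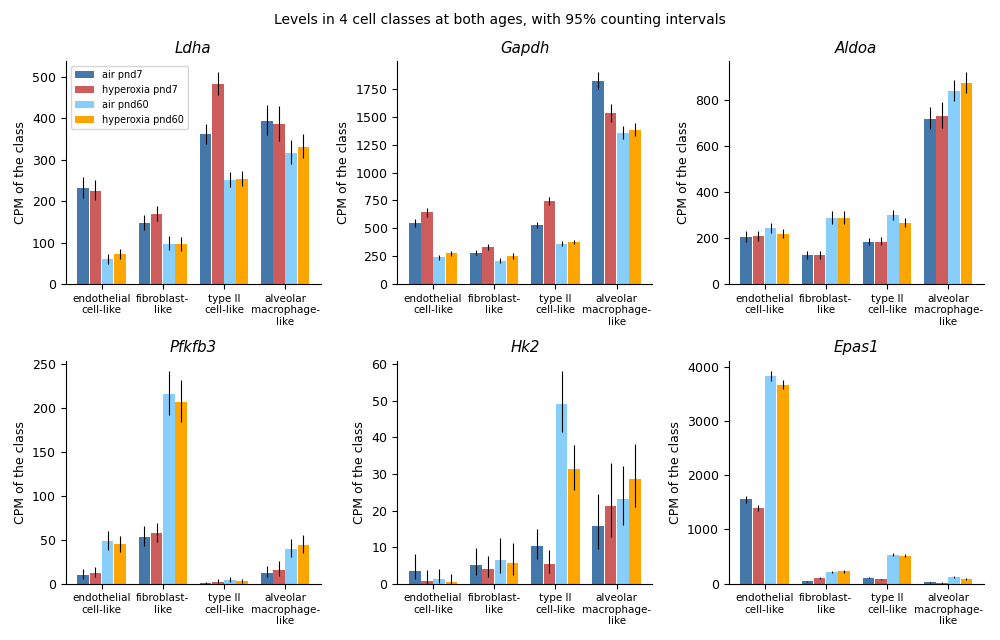
CPM (bars from 0, with 95% counting intervals) of Ldha, Gapdh, Aldoa, Pfkfb3, Hk2 and Epas1 in 4 cell classes of the unsorted libraries at pnd7 and pnd60. Ldha is lower at pnd60 than at pnd7 in all 4 classes, Pfkfb3 is highest in fibroblast-like and Hk2 in type II cell-like cells at pnd60, and Epas1 is highest in endothelial cell-like cells.

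Other genes of the same pathways were taken from lists that do not overlap the members. Of 20 further glycolysis genes, among them minor isoforms and gluconeogenic enzymes, 8 reached the minimum for hyperoxia against air at pnd7, with 0 past the fold above and 1 below. That gene was the glucose transporter Slc2a3, at 27.4 CPM in air and 6.92 CPM in hyperoxia, -1.98 (-2.32 to -1.66). It was among the leading genes of erythroid-like cluster 6, which held 440 air and 43 hyperoxia cells and was led by globin genes and also by the platelet genes Itga2b, Nrgn and Clec1b. With integrated clusters it led a small cluster together with these 3 genes and Gp5, apart from the globin genes, with 17 air and 3 hyperoxia cells at pnd7. Of 24 further hypoxia-response genes, 21 were compared at pnd7 and 0 passed the fold, with ratios from -0.45 for Rora to 0.33 for Adm. Of 27 genes of pyruvate dehydrogenase and the tricarboxylic acid cycle, 25 were compared and 0 passed, from -0.36 for Pdp1 to 0.21 for Pdhb. At pnd60, 1 of 10, 1 of 20 and 0 of 26 genes of these lists passed the fold, Eno3 at -0.62 and Ddit4 at -0.71.

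In the sorted against the unsorted hyperoxia library, the further hypoxia-response genes split into 2 above and 11 below among 20, from -6.63 for Ppp1r3c to 3.05 for Bhlhe40. The further glycolysis genes split into 1 above and 6 below among 7, from -3.48 for Bpgm, an erythrocyte enzyme, to 0.69 for Tigar. For pyruvate dehydrogenase and the tricarboxylic acid cycle, 1 was above, the mitochondrial pyruvate carrier subunit Mpc1 at 1.16, and 6 were below among 25, the lowest Pdk2 at -1.94. These splits stood beside the background of 13.4% above and 48.7% below given for this comparison. With age in air, the 3 lists had 5 above and 1 below among 10, 4 and 4 among 21, and 2 and 4 among 25, beside 31.4% and 17% of all genes before TMM scaling.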

How the data were processed

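Single-cell RNA-seq counts were analysed from 5 10x libraries of mouse lung. The authors deposited raw unique molecular counts per gene and cell barcode, and the submitters' processing notes name Cell Ranger, Seurat 3.2.1 and mm10. Cells with more than 700 and fewer than 8000 detected genes and under 5% mitochondrial counts were kept. Counts were summed per library, or per library and cell class, and divided by their total (CPM), with exact Poisson intervals for levels and exact binomial intervals for ratios, both at 95%.

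Cells were clustered without integration (scanpy 1.11.5, Leiden resolution 2, members left out) and named from marker genes. Scrublet called 1, 4, 16, 138 and 156 doublets, which were kept in the values of the report. At pnd7 without sorting this is under 0.5% of cells, so doublets may remain. Comparisons needed 100 counts in the 2 libraries and, for classes, 20 cells in each.

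The members and gene lists were chosen with earlier results of these data known. All 32 members were named in whole libraries. Within classes the genes named were those with the highest or lowest ratio or the clearest differences between classes, and of the other lists the highest and lowest gene. Other genes named in the text were chosen after their values were seen. The scripts were tested on simulated counts. Alternatives changed the cells kept, doublets, thinning, scaling (edgeR 4.0.16 TMM), the count minimum and the classes (integration with Seurat 5.3.0). Leaving out erythroid-like cells and the 5% of cells with the highest doublet scores, and taking the B cell-like level off Epas1, were added after seeing the data.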

Additional observations from a re-analysis of the deposited data

Results flagged for a closer look

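In 5 cases the ratio of hyperoxia to air went one way at pnd7 and the other way at pnd60, each with a counting interval that left out 0. All members compared at both ages, in whole libraries and in classes, were searched for such cases. The share of such cases over all genes was not determined. Each library stands for 1 condition, so the difference between the ages was not tested.

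Pfkfb3, whose product raises an activator of phosphofructokinase, had a log2 ratio of 0.63 (0.37 to 0.90) at pnd7 and -0.18 (-0.32 to -0.03) at pnd60 over whole libraries. Fibroblast-like cells made up 6.37% of the air and 14.2% of the hyperoxia cells at pnd7, and 6.82% and 6.75% at pnd60. At pnd7 they held the largest share of its counts of any class, but most of its counts lay outside them. The part of these shares in the ratios was not tested. With integrated clusters their shares at pnd7 were 7.02% and 11.2%.

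Ndufa4l2 in pericyte-like cells had a log2 ratio of 0.23 (0.05 to 0.42) at pnd7 and -0.68 (-1.21 to -0.15) at pnd60, from 46 to 58 cells in a library. Epas1 in the same cells had -0.21 (-0.41 to -0.02) at pnd7 and 1.33 (1.10 to 1.56) at pnd60, where 5 cells held 76.5% of its hyperoxia counts.

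Gapdh, a glycolytic enzyme, had a log2 ratio of -0.20 (-0.39 to -0.01) at pnd7 and 0.16 (0.01 to 0.30) at pnd60 in monocyte-like cells. In T cell-like cells it had 0.46 (0.34 to 0.58) at pnd7 and -0.15 (-0.29 to -0.01) at pnd60. At pnd7, 5 of the 69 T cell-like cells of hyperoxia held 39.0% of their glycolysis counts.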

How the results depend on the processing

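No paired analysis was possible because the 5 libraries stand for 5 different conditions, which also leaves the spread between animals unknown, and intervals cover counting error only. The interval of a median was taken as the median of the interval ends of its genes, which is not a counting interval of the median itself. An alternative inside it was counted as staying, even where its sign differed. Of the medians over whole libraries, 61 alternatives stayed, 10 moved and 1 reversed, and within the classes described 94 stayed, 3 moved and 1 reversed.

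For the sorted against the unsorted library, the glycolysis median of 0.49 became 1.19 with all deposited barcodes, 1.06 with TMM scaling, 0.59 as a mean over cells and 0.68 with a minimum of 10 counts, and the HIF target median of -0.92 became -0.24 with all barcodes and -0.35 with TMM. For age in air, the glycolysis median of 0.22 became 0.88 with all barcodes, 0.0593 as a mean over cells, 0.0668 with thinned cells and -0.014 with TMM, and the HIF target median of 0.07 became 0.65 with all barcodes. The median of all genes moved with these settings, by 0.65 and 0.57 in the sorted comparison and by 0.64 and -0.23 in the age comparison for all barcodes and TMM. The TMM shift of -0.23 exceeds the HIF target age median of 0.07 in size, so that median also fell below 0, although it was counted as staying.

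Thinning each cell to 1000 counts turned the glycolysis median at pnd7 to -0.35 in endothelial cell-like cells, and gave 0.58 in type II cell-like and 0.997 in fibroblast-like cells. It turned the HIF target median of sorted against unsorted alveolar macrophage-like cells from below 0 to 0.24. The tally of reversals above therefore does not hold every change of sign. The cause was not tested. With integrated clusters the glycolysis level of alveolar macrophage-like cells became 4216 CPM in hyperoxia pnd7, 4438 CPM in the sorted library and 4326 CPM in air pnd60. The class then held 190 of the sorted cells in place of 415, and the others were named monocyte-, T cell- or secretory airway cell-like, among other classes, or stayed unnamed.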

Other observations

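In T cell-like cells at pnd7, Pgam1 was at 70.0 CPM in air and 157 CPM in hyperoxia, 1.16 (0.69 to 1.65), and Ldhb at 141 and 84.5 CPM, -0.74 (-1.23 to -0.27). Over single cells the median summed level was 3096 CPM in air and 2976 CPM in hyperoxia, so the higher pooled level came with a few cells of many counts. With age in air, Pdk1 was at 54.9 CPM at pnd7 and 162 CPM at pnd60 in these cells, 1.56 (1.10 to 2.05), while Ldha had a ratio of -1.21 and Ldhb -1.54.

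C1q macrophage-like cells (cluster 23) were the second class of the sorted library, with 47 cells. Unsorted hyperoxia held 19, under the minimum of 20 cells, so the levels are given without a comparison. Aldoa was at 238 CPM without and 440.4 CPM with sorting, Hif1a at 104 and 209.5 CPM, and Gpi1 at 259 and 144 CPM.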
